A study of Citrus sinensis with 72 samples.

Results

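The genes described here were those of the epicarp (EP), the colored outer peel of the ‘Fengjie 72-1’ navel orange (Citrus sinensis), that stood far above the other fruit tissues and reached their highest level while the fruit was expanding. They were 191 of the 30940 genes of the deposited table. A gene was taken when its highest group mean was an FPKM (a fragment count divided by gene length and library size) of 10 to 3000, when the EP exceeded each other tissue by at least 2 in T, and when its highest EP mean was at stage 3 or 4. T is the mean over the 6 stages of log2(group mean FPKM + 1) in a tissue. The genes were thus chosen by their measured levels in the EP and its distance from the other tissues, and both are given below as a description without a test. What the rule did not use was the order of the stages in the albedo (AL, the white spongy inner peel), the segment membrane (SM, the wall of the segments) and the juice sac (JS, the vesicles that hold the juice), and the order of these inner tissues among themselves. It did use the averages of these tissues, each of which had to lie at least 2 in T below the EP.

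The EP of a citrus fruit holds the epidermis with its cuticle and wax, the oil glands that store volatile terpenes, and cells whose chloroplasts turn into chromoplasts when the peel colors. It is the surface that has to grow with the fruit, and the tissue in which light, color and the barrier to water are known to be dealt with. The AL beneath it is a loose tissue rich in cell walls and pectin, and the JS is the edible tissue, in which sugars and acids are stored.

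The 72 libraries held 24 groups of 3 biological replicates, EP, AL, SM and JS at each of 6 stages. Stage 1 was at 50 days after flowering (DAF), stages 2, 3 and 4 at 80, 120 and 150 DAF in the labels, stage 5 (coloring) at 180 DAF and stage 6 (full ripening) at 220 DAF. All fruits were of 1 cultivar grafted on Poncirus trifoliata and grown in 1 orchard without any treatment. A replicate was a mixture of fruits from a group of 3 trees. The p-values measure the spread of libraries within a tissue and stage. Per the paper each tree was sampled at every stage, and the 4 tissues were dissected in turn from the sampled fruits. The main fits took the libraries as independent, so any pairing by trees or fruits was ignored. The libraries held 15365221 to 25424354 fragments, as recovered from the steps of the FPKM values. Of the 72 libraries, 69 were closest by the correlation of log2(FPKM + 1) to a library of their own group. The exceptions were replicate 1 of EP2 (closest to replicate 3 of EP3), replicate 1 of AL2 (closest to replicate 1 of AL4) and replicate 1 of AL3 (closest to replicate 2 of AL2). None of the 30940 IDs matched a gene of the reference table, so genes are given by ID without a name or a role, and the tissue labels could not be checked against marker genes.

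At their highest EP mean the 191 genes ranged from an FPKM of 10.1 to 1829, with a median of 58.8 and quartiles of 29.96 and 100.4. There were 48 genes at 100 or more and 8 at 500 or more, and the least covered gene rested on 259 fragments in the 3 libraries of that group. The median of T was 4.63 for the EP, against 0.69 (AL), 0.80 (SM) and 0.82 (JS). The EP exceeded the next tissue by a median of 2.86 in T, by at least 4 in 45 genes and by at least 6 in 5 genes. The next tissue was the AL for 88 genes, the JS for 69 and the SM for 34. In 39 genes no group of the AL, SM or JS reached an FPKM of 1, and in 91 genes the lowest of the 18 EP libraries was above the highest of the 54 other libraries. Both counts follow in part from the rule, and were not set beside a share among other genes. In bulk tissue, fewer cells of a type and less RNA per cell cannot be told apart.

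Just inside the limit on T were Cs3g08060 (2.01) and Cs3g08480 (2.01), and just outside were Cs8g05410 (1.99) and Cs3g06820 (1.99). There were 64 genes between 2 and 2.5 and 98 further genes between 1.5 and 2 that met the other limits, so the boundary did not fall in a gap.

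**Figure D1:**
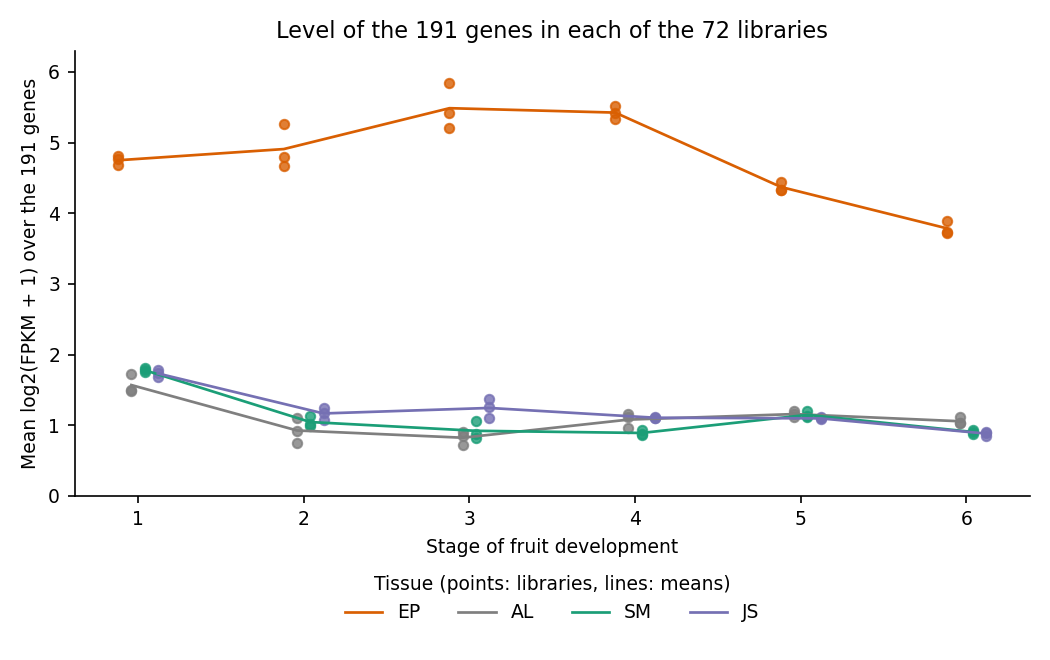
Mean log2(FPKM + 1) over the 191 genes (y axis) in each of the 72 libraries (points), by stage (x axis) and tissue (color), with a line through the group means. The EP libraries rose to between 5.20 and 5.85 at stage 3 and fell to between 3.73 and 3.90 at stage 6, while the AL, SM and JS were highest at stage 1.

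The EP time course was a broad rise followed by a steep fall. The median gene stood at 52.0% of its highest EP mean at stage 1, 58.9% at stage 2, 100% at stage 3, 95.4% at stage 4, 39.4% at stage 5 and 26.2% at stage 6. Together the 191 genes took 1.77% ± 0.15 (SD, n = 3) of the FPKM sum of an EP library at stage 1, 2.03% ± 0.47 at stage 2, 2.87% ± 0.56 at stage 3, 2.39% ± 0.11 at stage 4, 1.27% ± 0.07 at stage 5 and 0.94% ± 0.06 at stage 6. The spread at stages 2 and 3 came with replicate 1 of EP2 and of EP3. The mean log2(FPKM + 1) over the genes was 5.26 in replicate 1 of EP2 against 4.80 and 4.67 in the other replicates, and 5.85 in replicate 1 of EP3 against 5.41 and 5.20. Without replicate 1 of EP2 the rule took 203 genes, of which 182 were among the 191, and without replicate 1 of EP3 it took 179 genes, of which 177 were. The share of the FPKM sum was at most 0.64% in any AL library, 0.47% in any SM library and 0.32% in any JS library.

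The fall after stage 4 was shared more widely than the rise before stage 3. Between EP4 and EP5 the mean was lower in 181 of the 191 genes, with a median of 48.6% of the EP4 mean. Among the 16650 genes with an EP4 mean FPKM of at least 1, that median was 89.9%. The 91 genes highest at stage 4 had to be lower at EP5 by the rule, so this difference is in part set by the choice of genes. Means fell from EP4 to EP5 to EP6 in 146 genes, rose from EP1 to EP2 to EP3 in 86, and did both in 65. Stage 6 was below stage 1 in 148 genes. At stage 6, 45 genes were under 10% of their highest mean, and 43 were still at 50% or more. At stage 1 only 9 genes were under 10%, and 98 were at 50% or more. Since the rule placed the highest mean at stage 3 or 4, these counts are a description and carry no test.

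The 100 genes highest at stage 3 and the 91 highest at stage 4 stood at different shares later. Stages 5 and 6 come sooner after stage 4 than after stage 3, so the split itself bears on this. Counted from the highest stage, the medians were 57.5% and 51.6% at the next stage, and 28.6% and 34.3% at the stage after it. The genes highest at stage 3 stood at a median of 57.5% of their highest mean at stage 4, 28.6% at stage 5 and 18.01% at stage 6. Those highest at stage 4 stood at 59.9% at stage 3, 51.6% at stage 5 and 34.3% at stage 6. Before the peak they stood at 52.6% and 49.9% at stage 1, and at 62.7% and 50.4% at stage 2. The boundary between both sets was soft for 17 genes of the first and 18 of the second, whose other mid stage was within 80% of the highest mean.

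**Figure D2:**
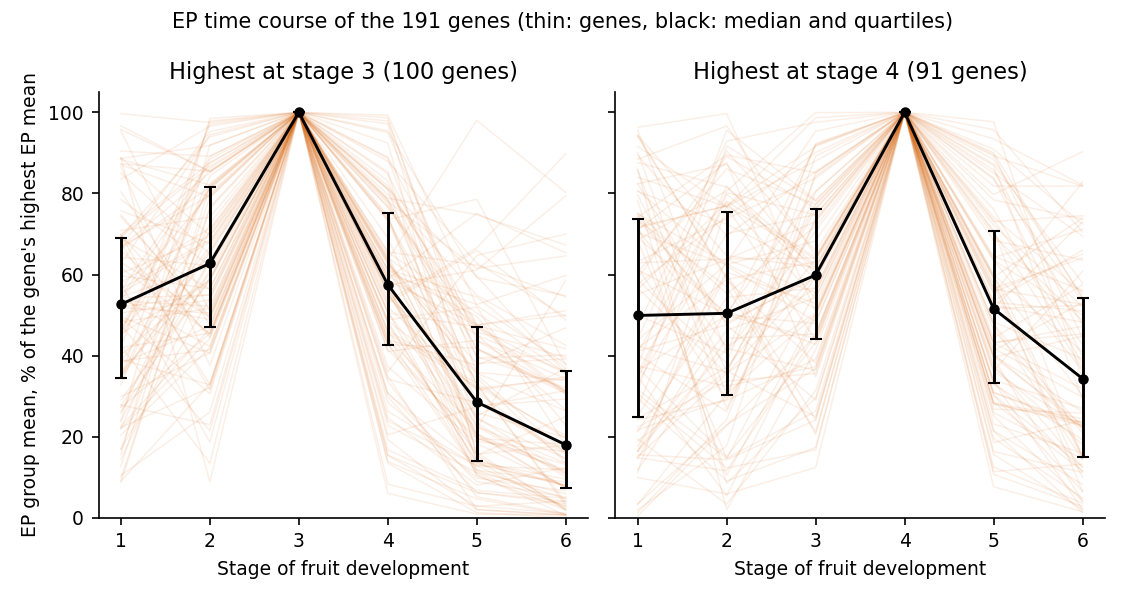
EP group mean of each gene as a percent of its highest EP mean (y axis) by stage (x axis), for the 100 genes highest at stage 3 (left) and the 91 highest at stage 4 (right). Thin lines are genes, and black points with bars are the median and quartiles. At stage 5 the median was 28.6% on the left and 51.6% on the right.

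The gene with the highest EP mean was Cs9g03630. Its 3 EP libraries had an FPKM of 472.5, 478.3 and 458.9 at stage 1, of 2392, 1942 and 1153 at stage 3, and of 312.2, 318.5 and 266.5 at stage 6. All libraries of stage 3 were above all of stages 1 and 6, although replicates 1 and 3 of stage 3 were far apart. Cs1g22450 was the next of those highest at stage 3, with 1220, 1167 and 1129 at stage 3 against 817.8, 717.1 and 724.3 at stage 1, and it kept 31.1% of its highest mean at stage 6. Among the genes highest at stage 4 the leading gene was Cs6g18340, which also had the largest distance from the other tissues of all 191 (7.63 in T). It had an FPKM of 1038, 1323 and 1138 at stage 4 and of 330.0, 274.3 and 154.4 at stage 1, and still 842.8, 827.7 and 554.5 at stage 6. In the 54 libraries of the AL, SM and JS its highest FPKM was 8.20. Cs9g11480 was next in distance (6.53), with an FPKM of 567.4, 627.1 and 650.9 at stage 3 and at most 5.70 in any other tissue, and it fell to 51.96, 48.32 and 39.46 at stage 6.

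The extremes of the time course show how unlike the genes were. Cs3g06370 was a pulse, with an FPKM of 90.65, 105.4 and 83.21 at stage 3, 13.03, 14.37 and 10.36 at stage 4, and 0, 0.12 and 0.04 at stage 6. Cs2g08540 had 19.86, 21.01 and 21.24 at stage 3 and 0.11, 0.13 and 0.15 at stage 6. In both genes the libraries of stage 6 were under 1% of the highest mean. At the other end, Cs9g16610 had 54.23, 61.98 and 71.88 at stage 4 and 57.28, 56.24 and 56.30 at stage 6, which overlap, and orange1.1t05598 had 15.23, 11.94 and 7.86 at stage 3 and 8.93, 9.63 and 12.89 at stage 6, which overlap too. For these genes stage 6 was within the spread of the highest stage.

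At stage 1 the contrast was as wide. Novel00741 had an FPKM of 0.21, 0.13 and 0.13 at stage 1 and of 22.67, 38.66 and 47.53 at stage 4, and Novel01073 had 0.43, 0.40 and 0.64 at stage 1 and 29.99, 42.20 and 40.64 at stage 4. Both rose from near 0 and were under 3 in every AL, SM and JS library. Cs8g08490 had 159.0, 142.1 and 182.6 at stage 1 and 157.0, 153.4 and 174.9 at stage 3, and Cs9g16450 had 74.65, 58.81 and 63.70 at stage 1 and 72.10, 64.80 and 67.12 at stage 3. In these genes the libraries of stages 1 and 3 overlapped, so that they were level from stage 1 and fell later.

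How firmly the stage of the highest value was set was looked at in single replicates. When the EP time course was read in each replicate number alone, the highest value was at stage 3 or 4 in all 3 series for 92 genes, in 2 for 75, in 1 for 22 and in none for 2. The 3 libraries of the highest stage were all above the 3 of stage 5 in 142 genes and above the 3 of stage 1 in 125. The same libraries set the highest stage and chose the genes, so these counts are favored by the choice. No share among other genes is given beside them. The rule was also applied to 2 replicate numbers and read in the third. With replicate 1, 2 or 3 held out, 197, 194 and 221 genes were taken, and 128 (64.97%), 152 (78.4%) and 133 (60.2%) of them were highest in the EP at stage 3 or 4 in the held-out libraries. Among the 13765, 13463 and 13489 genes in the level range there, 31.7%, 32.7% and 23.5% were. The distance of at least 2 in T was met by 182 (92.4%), 178 (91.8%) and 203 (91.9%) of the genes taken, against 3.75%, 3.54% and 3.59%, and both limits together by 117 (59.4%), 141 (72.7%) and 118 (53.4%), against 1.61%, 1.52% and 1.27%. The held-out replicates thus repeated the tissue more often than the stage. For the stage, a nearer base than all genes is the 461 genes that met the tissue and level limits. By the means of all replicates, which include the held-out one, 41.4% of these were highest in the EP at stage 3 or 4.

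The rule did not use the IDs, and the lengths recovered from the FPKM steps entered it only as a divisor of the FPKM. Of the 191 IDs, 48 (25.1%) began with orange1.1t, against 13.1% of the 13280 genes with a highest group mean of 10 to 3000. Those beginning with Cs5 were 11 (5.76% against 12.9%), with Cs6 9 (4.71% against 8.09%), with Cs8 6 (3.14% against 7.07%) and with Cs9 18 (9.42% against 6.29%). The median length was 1427 bases, with quartiles of 1027 and 1908, against 1701 bases in the level range. It was 1541 bases in the 200 genes that met the same limits but were highest in the EP at stage 1 or 2, and 1670 bases in the 70 genes highest at stage 5 or 6.

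There were 7 pairs of genes with IDs next to each other in number (14 genes), and in 6 of the pairs both were highest at the same stage. Cs4g20550 and Cs4g20560, and close to them Cs4g20580 and Cs4g20590, were all highest at stage 3, with EP means of 120.5 to 252.2. In EP5 replicate 2 stood above replicates 1 and 3 in each of them, with an FPKM of 149.7 against 76.17 and 68.03 in Cs4g20550, and of 125.5 against 68.63 and 64.37 in Cs4g20590. They were named after their values were seen, and fragments shared between near-identical copies could not be checked.

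In the AL, SM and JS the same genes were at a low level. Among all those with a fragment in the tissue, the highest mean was at stage 1 for 83 of 191 genes in the AL (43.5%, against 27.8% of 25272 genes), for 80 of 191 in the SM (41.9%, against 37.6% of 25699) and for 83 of 190 in the JS (43.7%, against 41.9% of 25085). In the SM and JS these shares were near those of all genes. Stages 3 and 4 held the highest mean for 14.1% (AL), 15.7% (SM) and 28.4% (JS) of them, against 22.5%, 25.6% and 17.3% of all genes. The mean log2(FPKM + 1) over the 191 genes was 1.57 ± 0.13 (SD, n = 3) in AL1 and 0.82 ± 0.09 in AL3, 1.78 ± 0.03 in SM1 and 0.92 ± 0.12 in SM3, and 1.73 ± 0.05 in JS1 and 1.24 ± 0.13 in JS3.

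**Figure D3:**
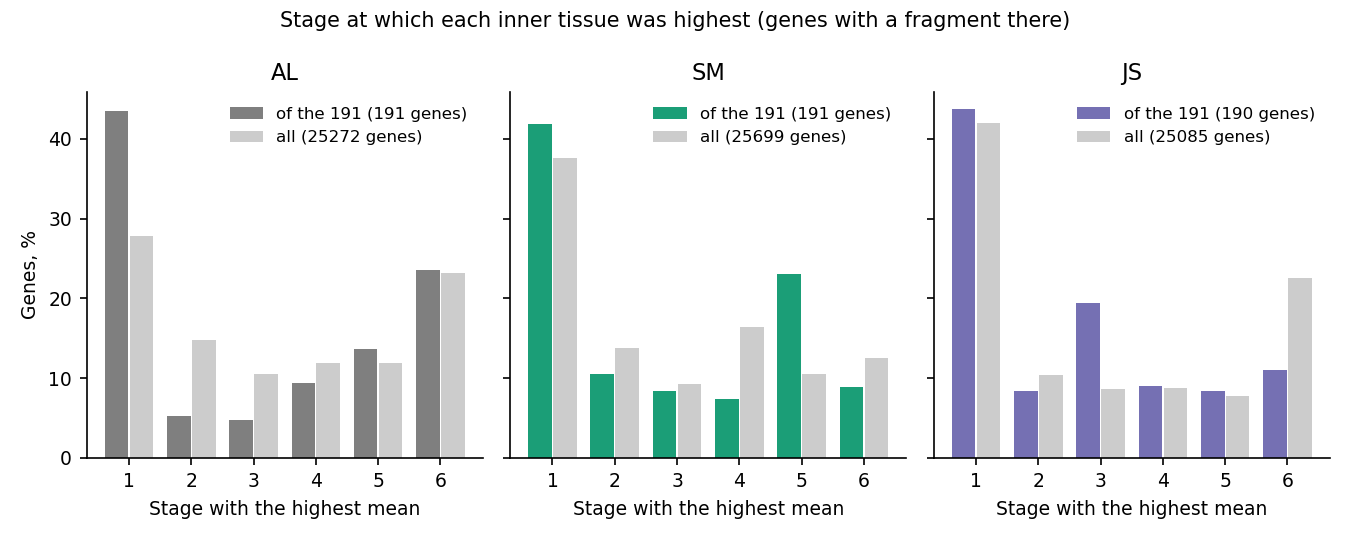
Share of genes in percent (y axis) with their highest group mean at each stage (x axis) in the AL, SM and JS, for those of the 191 genes with a fragment in the tissue (colored) and for all such genes (light gray). Stage 1 holds 43.5%, 41.9% and 43.7% of the colored bars, against 27.8%, 37.6% and 41.9% of the gray ones.

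In 13 genes the highest group of all 24 was even outside the EP, and in each of them it was at stage 1 (AL1 for 7, SM1 for 4 and JS1 for 2). Cs4g10240 had an FPKM of 490.1, 353.4 and 331.4 in AL1, against 178.2, 99.38 and 64.41 in EP4, its highest EP group. In the AL from stage 3 onward it was at most 1.19, so the gene met the rule through the average over stages. Its EP also dipped to 1.49, 2.56 and 2.71 at stage 2, below every other EP library. Cs2g20590 had 783.2, 636.3 and 361.9 in SM1 and 945.6, 219.2 and 175.8 in AL1, against 534.8, 325.8 and 174.6 in EP3, and the 3 groups overlap. In AL1 replicate 1 stood apart from the other replicates, as it did for the sum over the 191 genes (4060 against 2097 and 1923).

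Stage 6 was compared with stage 1 within each inner tissue with limma on log2(FPKM + 1), a scale that understates the change of low genes. Per the paper the share of high-quality bases was larger in every stage 6 library than in any stage 1 library of the same inner tissue. RNA integrity was mostly higher in the SM and JS than in the AL. The fits modeled neither. A gene was called at a Benjamini-Hochberg adjusted p under 0.05, adjusted over all genes tested. Without any filter on low values, 68 of the 191 genes (35.6%) were lower and 47 (24.6%) higher at stage 6 in the AL, against 20.5% lower and 23.3% higher among 25272 genes. In the SM 83 (43.5%) were lower and 39 (20.4%) higher, against 36.4% and 19.4% of 25699 genes. In the JS 99 of 190 (52.1%) were lower and 25 (13.2%) higher, against 35.5% and 20.8% of 25085 genes. The share of lower calls was thus above that of all genes in each tissue, by the smallest margin in the SM, and the share of higher calls was below that of all genes in the JS.

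With the filter of the main test (3 or more libraries of the tissue with an FPKM of 1 or more), 116 (AL), 121 (SM) and 115 (JS) genes were tested. Of these, 19, 21 and 22 passed the filter only through stage 1, and such a gene was bound to be lower later, so the counts are given for completeness. In the AL 53 were lower and 33 higher (all genes: 21.9% and 31.0%), in the SM 70 and 27 (42.2% and 25.9%), and in the JS 74 and 18 (41.7% and 27.1%). Without the filter 49 of 190 genes (25.8%) were lower in all 3 tissues and 10 (5.26%) higher in all 3, against 15.0% and 10.3% of 23770 genes. Dividing each library by its median ratio moved the median change of all genes from 0.25 to −0.06 (AL), −0.29 to −0.12 (SM) and −0.25 to −0.09 (JS). In the AL all genes were then called lower in 28.3% and higher in 20.4%, against 55 and 28 of the 116.

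The largest falls were close to complete. Cs4g10240 fell in the AL from 490.1, 353.4 and 331.4 at stage 1 to 0.13, 0.07 and 0.34 at stage 6 (log2 change −8.36, SE 0.49, limma adjusted p = 1.56e-09), and in the SM from 94.05, 89.06 and 119.8 to 0.14, 0 and 0 (−6.60, SE 0.35, adjusted p = 3.32e-11). Its EP libraries at stage 6 had 30.43, 30.20 and 92.60, far above the AL and SM libraries of that stage. In the AL orange1.1t03455 fell from 488.5, 182.1 and 177.2 to 0.20, 0.21 and 0.11 (−7.74, SE 0.72, adjusted p = 3.28e-07).

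Cs2g20590 had the largest fall of the JS, from 155.3, 482.2 and 226.2 to 0.07, 0.33 and 0.03 (−7.82, SE 0.33, limma adjusted p = 1.46e-12). Cs2g23280 fell in the JS from 35.77, 200.5 and 50.72 to 0.07, 0 and 0 (−6.15, SE 0.39). Its JS libraries were at most 0.66 at stages 2 to 6, so it passed the filter only through stage 1. Such a gene was bound to be lower later, and no p-value is given for it in the JS. In the SM it fell from 100.3, 153.9 and 83.11 to 0, 0.05 and 0 (−6.76, SE 0.23, limma adjusted p = 1.43e-13), with at most 1.38 at stages 2 to 6. In both genes every library of stage 1 was above every library of stage 6. In the EP, Cs2g23280 was highest at stage 3 with 484.9, 256.1 and 170.0 and stood at 2.65, 2.63 and 4.68 at stage 6, so it declined there too.

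Other genes ran the opposite way and were higher at stage 6 than at stage 1 in an inner tissue. Cs2g30570 had an FPKM of 2.07, 0.64 and 1.88 in JS1 and of 45.24, 48.27 and 50.78 in JS6 (log2 change 4.33, SE 0.26, limma adjusted p = 1.61e-10), and of 0, 0.06 and 0.14 in SM1 and 14.81, 9.54 and 17.78 in SM6 (3.78, SE 0.25, adjusted p = 4.87e-10). Its EP libraries had 81.84, 86.62 and 100.5 at stage 6, all above those of JS6. In the JS orange1.1t02246 rose from 1.12, 0.94 and 1.53 to 24.87, 17.81 and 20.35 (3.32, SE 0.25, adjusted p = 3.05e-09). In the AL Cs2g10440 rose from 0.36, 0 and 0 to 3.86, 4.92 and 7.86 (2.52, SE 0.31, adjusted p = 6.97e-06). The call of Cs9g10630 in the SM (2.97, SE 0.50, adjusted p = 4.88e-05) came with 3.52, 33.77 and 4.17 at stage 6 against 0.40, 0 and 0.21 at stage 1, and replicate 2 of SM6 was far above the others.

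**Figure D4:**
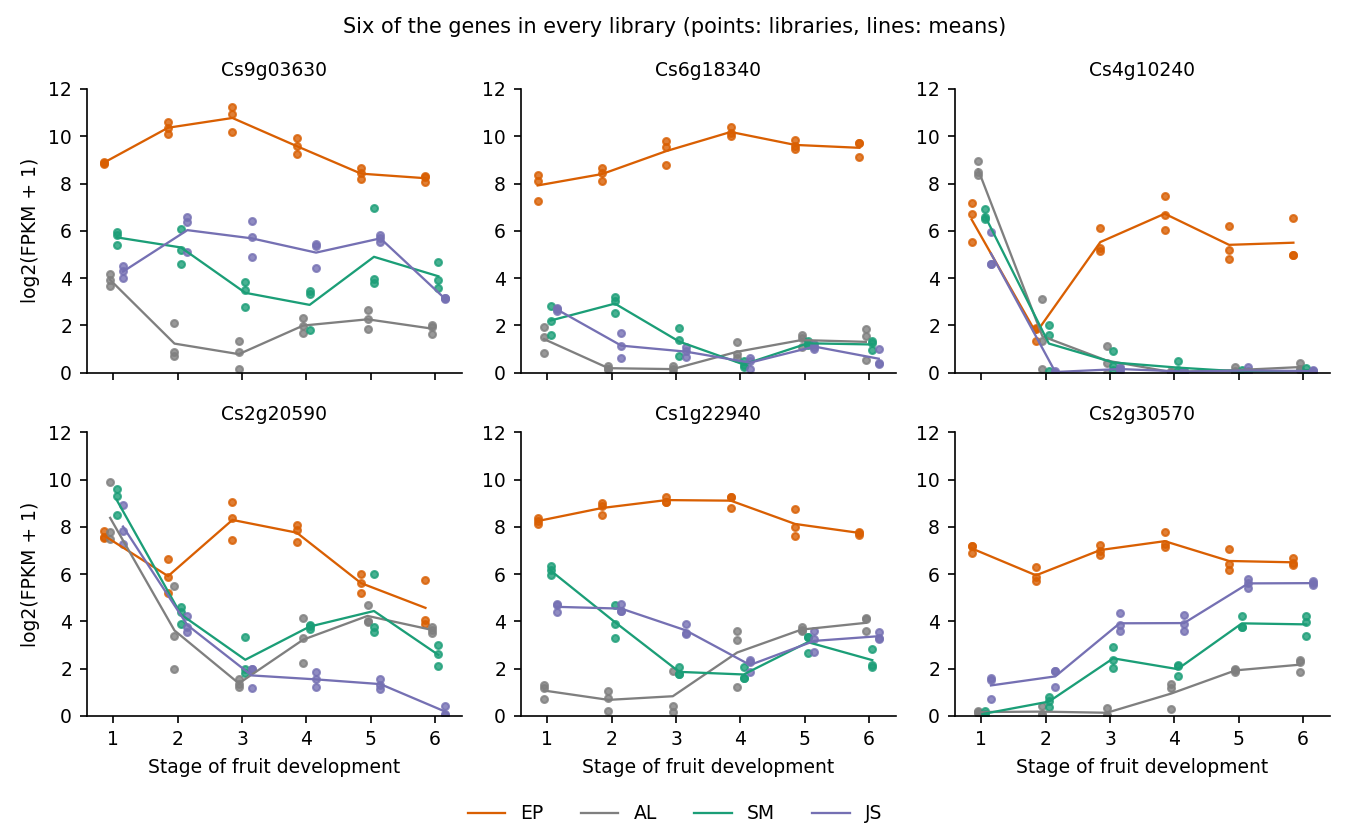
log2(FPKM + 1) (y axis) by stage (x axis) of 6 genes in every library (points, colored by tissue), with lines through the means of the log2 values. Cs4g10240 falls from 490.1, 353.4 and 331.4 at stage 1 of the AL to 0.13, 0.07 and 0.34 at stage 6, while Cs2g30570 rises in the SM and JS to 14.81, 9.54 and 17.78 and to 45.24, 48.27 and 50.78 at stage 6.

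The tissues did not always move together. Whether stage 6 vs. stage 1 differed from tissue to tissue was tested in a fit of all AL, SM and JS libraries. Without a filter it was called lower in the SM than in the AL for 60 of the 191 genes (31.4%) and higher for 23 (12%), against 21.0% and 6.51% of 26930 genes. It was lower in the JS than in the AL for 69 (36.1%) and higher for 37 (19.4%), against 24.5% and 11.1%, and lower in the JS than in the SM for 42 (22.0%) and higher for 37 (19.4%), against 11.7% and 12.1%. With the filter 148 genes were tested, 19 of which passed only through stage 1, and the counts were 45 lower and 19 higher (all genes: 26.8% and 7.53%), 57 and 30 (32.1% and 12.4%), and 39 and 33 (15.3% and 14.6%). In 21 of 190 genes (11.1%) a pair of tissues was called in opposite directions with a called difference, against 4.80% of 23770 genes, without a filter. Cs1g22940 was the largest case among the named genes. It rose in the AL from 1.29, 0.63 and 1.48 to 15.89, 16.74 and 10.96 and fell in the SM from 61.31, 78.95 and 71.07 to 6.19, 3.20 and 3.46, with no overlap between the stages in either tissue.

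Stages 3 and 4, where the EP was highest, were next compared with the mean of the other stages. Without a filter, 55 of the 191 genes (28.8%) were lower and 9 (4.71%) higher at stages 3 and 4 in the AL, against 10.7% and 6.49% of all genes. In the SM 74 (38.7%) were lower and 12 (6.28%) higher, against 15.7% and 13.6%, and in the JS 49 of 190 (25.8%) were lower and 33 (17.4%) higher, against 16.2% and 9.32%. With the filter 50 were lower and 8 higher in the AL (all genes: 13.9% and 9.90%), 65 and 10 in the SM (20% and 19.6%) and 43 and 28 in the JS (19.8% and 13.3%). In the AL and SM more of the genes were lower than higher at the stages at which the EP was highest. In the JS the balance turned with the method. With limma-voom on the recovered fragments 23 genes were lower and 37 higher in the JS, 33 and 10 in the AL and 44 and 14 in the SM.

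**Figure D5:**
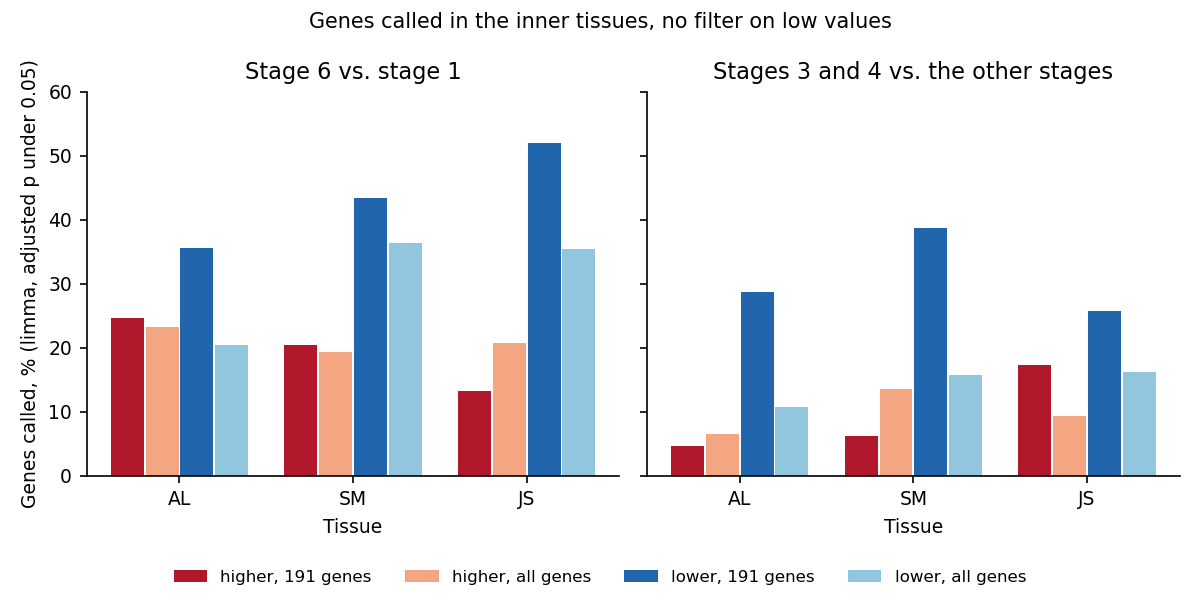
Percent of genes called higher (red) and lower (blue) by limma (y axis) in the AL, SM and JS (x axis), for the 191 genes (dark) and all genes (light), without a filter on low values. At left is stage 6 vs. stage 1, at right stages 3 and 4 vs. the other stages, where 28.8%, 38.7% and 25.8% of the genes were lower.

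The balance depended on stage 1. Against stages 2, 5 and 6 alone, a comparison added after seeing that the inner tissues were highest at stage 1, and without a filter, 39 genes were lower and 10 higher in the AL (all genes: 7.71% and 4.69%), 33 and 8 in the SM (9.34% and 11.8%), and 10 and 38 in the JS (8.97% and 9.97%). With the filter the counts were 33 lower and 10 higher in the AL (10.7% and 7.40%), 30 and 10 in the SM (13.3% and 18%), and 9 and 32 in the JS (12.4% and 14.8%). The balance in the JS thus turned from lower to higher, while in the AL and SM more genes stayed lower. Leaving out replicate 1 or 3 of JS1 took the lower calls of the JS from 43 to 26, with 99 or 98 genes passing the filter in place of 115. Leaving out replicate 2 of SM3 took the higher calls of the SM from 10 to 6.

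The largest differences in favor of stages 3 and 4 in the JS were those of Cs7g18550 and Cs3g06740. Cs7g18550 had an FPKM of 41.59, 41.87 and 25.32 in JS3 and 36.62, 24.13 and 21.16 in JS4, against 1.60, 1.71 and 0.93 in JS1 and 7.68, 5.79 and 6.17 in JS6 (log2 difference 1.76, SE 0.14, limma adjusted p = 5.67e-08). It overlapped with JS2 at 22.04, 25.72 and 20.19, so the rise was already there at stage 2. In the EP it had 246.6, 177.7 and 191.6 at stage 3. Cs3g06740 had 34.91, 6.28 and 8.89 in JS2, 13.23, 10.66 and 7.30 in JS3, 3.85, 5.22 and 3.42 in JS4 and 0 in every library of JS6 (1.55, SE 0.24, adjusted p = 9.63e-05). In the EP it was highest at stage 4, with 90.30, 67.93 and 78.96 against 34.90, 31.72 and 38.28 at stage 3, so that the JS was already falling when the EP peaked.

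In the AL, Cs2g03780 and Novel00234 were the highest calls at stages 3 and 4. Cs2g03780 had an FPKM of 999.8, 147.9 and 73.38 in AL3, 482.5, 170.3 and 450.1 in AL4, 1.77, 20.95 and 6.15 in AL1 and 29.20, 21.65 and 24.85 in AL6 (log2 difference 2.98, SE 0.51, limma adjusted p = 6.13e-04). Novel00234 had 599.0, 50.23 and 40.15 in AL3 and 302.6, 91.47 and 249.7 in AL4 (3.20, SE 0.51, adjusted p = 3.26e-04). In both genes replicate 1 of AL3 was far above replicates 2 and 3, and so was replicate 1 of EP3, with 1441 against 720.6 and 341.6 for Cs2g03780 and 565.1 against 284.0 and 147.3 for Novel00234. Without replicate 1 of AL2 and replicate 1 of AL3, left out together after they were seen to be closest to other groups, the differences were 2.59 and 2.73, and 48 genes were lower and 12 higher in the AL.

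Among the falls at stages 3 and 4, Cs9g06620 led in the SM. It had 0.50, 0.38 and 0.47 in SM3 and 0.39, 0.03 and 0.34 in SM4, against 204.0, 77.38 and 37.48 in SM1, 1.45, 0.72 and 0.80 in SM2 and 2.49, 1.78 and 4.33 in SM6 (log2 difference −2.56, SE 0.32, limma adjusted p = 7.60e-06), with no overlap between stages 3 and 4 and any of these groups. In the EP the same gene was at 146.5, 89.50 and 118.1 at stage 3. In the SM Cs5g15130 was higher at stages 3 and 4 (1.17, SE 0.28, adjusted p = 0.00322), with 9.88, 1.73 and 0.87 in SM3 and 3.84, 9.40 and 5.72 in SM4 against 0.53, 1.77 and 1.37 in SM1. SM3 overlaps with SM1, and SM4 lies above it. The call of Cs3g03360 in the SM (0.76, SE 0.27, adjusted p = 0.0355) was lost under 13 alternatives, with adjusted p up to 0.224. The falls of Cs4g10240 in the AL (−2.35, SE 0.30, adjusted p = 5.47e-05) and of Cs2g20590 in the JS (−1.72, SE 0.20, adjusted p = 4.77e-06) were no longer called without stage 1, with adjusted p = 0.462 and 0.624.

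The order of the inner tissues differed from gene to gene. Averaged over the stages, 55 of the 191 genes were higher and 66 lower in the SM than in the AL without a filter (all genes: 20.3% and 29.1%), 64 higher and 73 lower in the JS than in the AL (20.1% and 35.5%), and 62 higher and 44 lower in the JS than in the SM (17.3% and 23.4%). With the filter 148 genes were tested, and the counts were 51 and 51 (25.6% and 36.4%), 58 and 58 (24.9% and 43.3%), and 57 and 42 (22.2% and 29.2%). With the filter, calls were thus as common in either direction in the comparisons with the AL, while all genes leaned to the AL. The rule held each of these averages below that of the EP, which limits how far they can part. The counts beside all genes, and the p-values of the genes named next, are therefore a description. After division by the median ratio the lean of all genes was gone from SM against AL (34.5% higher and 28.9% lower) and from JS against AL (33.3% and 34.5%), and the genes counted 55 against 45 and 64 against 55.

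Cs8g10400 was the clearest gene of the JS, at 71.39, 27.09 and 54.32 in JS2 and 22.08, 36.41 and 51.04 in JS3, while its 18 AL libraries were at most 4.33 (JS against AL 3.31, SE 0.13, limma adjusted p = 3.06e-25). In contrast, orange1.1t03578 was shared with the AL, at 13.24, 35.36 and 121.6 in AL2 and 36.02, 34.95 and 28.24 in AL3, with at most 1.69 in any SM library (SM against AL −2.71, SE 0.14, adjusted p = 1.30e-19) and 1.06 in any JS library (−2.77, SE 0.14, adjusted p = 1.46e-20). Cs6g07920 was shared with the flesh early, at 111.6, 79.31 and 100 in SM2 and 123.0, 92.44 and 84.45 in JS2 against 87.37, 58.25 and 45.81 in EP2, and it was at most 1.01 in the AL (SM against AL 2.60, SE 0.12, adjusted p = 5.00e-21). The JS and SM were parted by orange1.1t00733, which was at 94.03, 94.97 and 87.68 in SM6 and 8.87, 7.13 and 4.68 in JS6 (JS against SM −1.90, SE 0.16, adjusted p = 1.33e-13).

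The same comparisons were read, without a filter, in the other EP-specific genes. Lower at stage 6 than at stage 1 were 52.0% (AL), 63.0% (SM) and 64.3% (JS) of the 200 genes highest in the EP at stage 1 or 2, of which 199 had a fragment in the JS. For the 70 genes highest at stage 5 or 6 the shares were 20%, 35.7% and 37.1%, and the shares of the 191 given above, 35.6%, 43.5% and 52.1%, lay between them. At stages 3 and 4 the shares in the SM and JS did not. Lower in the SM were 38.7% of the 191 against 51.0% and 54.3% of the earlier and later sets, and lower in the JS 25.8% against 40.7% and 32.9%. Higher in the JS were 17.4% of the 191 against 10.6% and 4.29%. In the AL the lower share of the 191 did lie between, at 28.8% against 27.5% and 44.3%. The differences between these sets were not tested.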

How the data were processed

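Per the labels and the study's methods, poly(A) RNA of hand-dissected EP, AL, SM and JS was sequenced in 72 libraries. The EP was scraped off with a scalpel and residual EP was removed before the AL was taken. The authors mapped filtered reads with TopHat, counted them with HTSeq and deposited an FPKM value for each gene in each library. HTSeq 0.6.1, Cufflinks and TopHat2 are named in the submitters' processing notes. The counts used by the authors with DESeq2 were not used here. All 72 columns matched a sample title. The labels give 150 DAF for stage 4, and the study's text gives a slightly later day.

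The rule was applied to group means. Whole fragments were recovered from the FPKM steps for 27759 of 27759 genes above 0, within 0.0001 fragments, with the lengths in bases. The stage contrasts were fitted with limma 3.58.1 (R 4.3.3, trend and robust settings) on log2(FPKM + 1), on the 18 libraries of a tissue, and the tissue contrasts on the 54 libraries of the AL, SM and JS, without a block. Genes entered with 3 or more libraries at an FPKM of 1 or more, and the Benjamini-Hochberg adjustment ran over all of them. The scripts were tested on simulated data. Alternatives were a pseudocount of 0.1, no filter, median-ratio scaling, limma-voom on the recovered fragments, the replicate number as a block, and each library left out. The counts without a filter of differences between tissues, of shared and opposite calls, of the other EP-specific genes and of the highest stage in the inner tissues were added after seeing the filtered ones. Python 3.11.15 with pandas 2.3.3 and matplotlib 3.10.9 made the tables and plots.

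Up to 2 IDs were named per item: the highest EP means, the extreme shares of the highest mean at stages 1 and 6, the largest distances in T, the genes next to the limit, and the extreme changes of each comparison among called genes. The genes and comparisons were chosen with earlier results of these data known. Fragments of near-identical genes and of opposite strands could not be told apart, and no sequence was used here.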

Additional observations from a re-analysis of the deposited data

Results flagged for a closer look

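The change from stage 1 to stage 6 of Cs1g22940 differed between tissues, which the limma fit of all AL, SM and JS libraries tested directly. It was lower in the SM than in the AL by −6.66 on the log2 scale (SE 0.54, limma adjusted p = 8.53e-13), being −3.80 in the SM and 2.87 in the AL. It was lower in the JS than in the AL by −4.11 (SE 0.54, adjusted p = 5.48e-08), with a change of −1.24 in the JS. All 3 AL libraries of stage 6 were above all 3 of stage 1, and in the SM and JS all 3 were below.

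The gene orange1.1t00733 changed in opposite directions in the JS and the SM. Its change in the JS was lower than in the SM by −3.15 (SE 0.54, limma adjusted p = 1.77e-05), being −1.77 in the JS and 1.38 in the SM, where it went from 38.84, 22.54 and 47.69 to 94.03, 94.97 and 87.68. In the AL the change was 0.14 (SE 0.46, adjusted p = 0.813).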

How the results depend on the processing

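The counts of called genes and the number of genes taken were recomputed under the alternatives, which gave 342 values, of which 334 were within 1.5 times the value given above. With limma-voom on the recovered fragments, 33 genes were lower at stages 3 and 4 in the AL in place of 50, and 23 in the JS in place of 43, where 37 were then higher in place of 28. Without stage 1, added after seeing the data, the lower genes were 33 (AL), 30 (SM) and 9 (JS). The cause of these differences was not tested. Leaving out libraries gave 36 to 53 (AL), 55 to 70 (SM) and 26 to 44 (JS) lower genes at stages 3 and 4, and 6 to 12 higher genes in the SM. At stage 6 vs. stage 1 the lower genes were 42 to 58 (AL), 59 to 71 (SM) and 56 to 75 (JS). The rule took 266 genes with a pseudocount of 0.1 (all 191 among them), 150 after median-ratio scaling (148 shared), 206 with medians (173 shared), and 179 to 221 with libraries left out. Of 959 values of named genes, 944 kept their direction and their side of the threshold and 15 kept the direction only, namely those of Cs3g03360, Cs2g20590 and Cs4g10240 given above. Libraries with the same replicate number deviated together in 287 of 828 pairs (correlation over 0.1). The mean correlation was 0.03, against −0.02 for different numbers. The numbers were not taken to pair the libraries, but these values do not settle whether libraries were paired by trees. With the replicate block no count moved by more than 2, for example 72 lower genes in the JS at stage 6 in place of 74, and 66 in the SM at stages 3 and 4 in place of 65.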
